A study of Rattus norvegicus with 10 samples.

Results

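The genes followed here encode enzymes of cholesterol synthesis, and they were chosen by name as Hmgcs1, Idi1, Fdps, Fdft1, Sqle, Lss, Cyp51 and Dhcr7. A gene was taken from a probe set, a group of array probes for a transcript, that carried its symbol alone, and the brightest probe set was to be used where there were several. This gave 7 of the 8 genes, each from 1 probe set, among 18166 named genes. The expression of Hmgcs1 was not analysed here.

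Cells build cholesterol from acetyl-CoA. The mevalonate part of the pathway makes isoprene units, which Idi1 isomerises and Fdps joins to farnesyl diphosphate. Fdft1 (squalene synthase), Sqle (squalene epoxidase) and Lss (lanosterol synthase) then make the first sterol, Cyp51 demethylates it, and Dhcr7 performs a last reduction to cholesterol. In most tissues these genes are switched together by the SREBP transcription factors, which respond to low sterol. In the testis, Leydig cells use cholesterol to make testosterone. Germ cells in meiosis and after it express several pathway genes, among them Cyp51, whose product is itself a meiosis-activating sterol.

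Whole testes of 14-week-old, sexually mature Zucker rats were profiled on 10 arrays with biotin-labelled total RNA. The groups were normally developed testes of obese rats (n = 4), under-developed testes of obese rats (n = 4) and normally developed testes of lean rats (n = 2). All samples, the lean ones included, are labelled with the Zucker (fa/fa) model, whose obesity comes from a mutated leptin receptor, and the collection text given for the lean rats also speaks of obese animals, so the genotype of the lean rats was not settled. The labels give the cause of under-development for no sample and call the samples of a group biological replicates without naming animals, so a p-value here speaks only to the variation among these arrays, part of which may be technical.

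Values are log2 expression values made by RMA, a method that corrects background, normalizes between arrays and summarises probes, and a difference of 1 is a 2-fold change. Array medians over the named genes lay between 6.87 and 7.02. Germ cell markers (15 genes), among them Sycp3, Ddx4 and Piwil1, averaged 11.9 in all 6 normal testes. One of the under-developed arrays was closer to the normal testes than the others of its group. Across genes, which are not independent replicates, under-developed replicates 1, 2 and 3 correlated with the average normal obese array at r = 0.860, 0.949 and 0.735, and replicate 4 did so at r = 0.996. Fits against normal obese testes are therefore given with and without replicate 4, a split chosen with its values already known. The split does not rest on an outlier test. For the enzyme genes, a Dixon test of the most extreme array in each group of 4 put 0 of 14 above the critical value. The permutation tests and the counts of arrays that do not overlap use all arrays. Precision is limited by the number of arrays, and most by the 2 from lean rats.

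The 5 enzymes of the middle of the pathway, Idi1, Fdps, Fdft1, Sqle and Cyp51, were lower in under-developed replicates 1 to 3 than in any normal testis, Lss went both ways, and Dhcr7, the last step, was higher. Replicate 4 differed from the normal obese mean by at most 0.25 log2 in any of the 7 genes. With all arrays, limma called 0 of the 7 genes at an adjusted p under 0.05, as it called 0% of all genes, and 6 of the 7 had an unadjusted p under 0.05 (5 lower and 1 higher), against 46.6% of all genes (22.3% lower and 24.4% higher). Without replicate 4, limma called 6 of the 7, of which 5 fell and 1 rose, where it called 56% of all genes (26.4% lower and 29.6% higher). The share of the members called is thus read against a background in which more than every other gene was called.

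**Figure D1:**
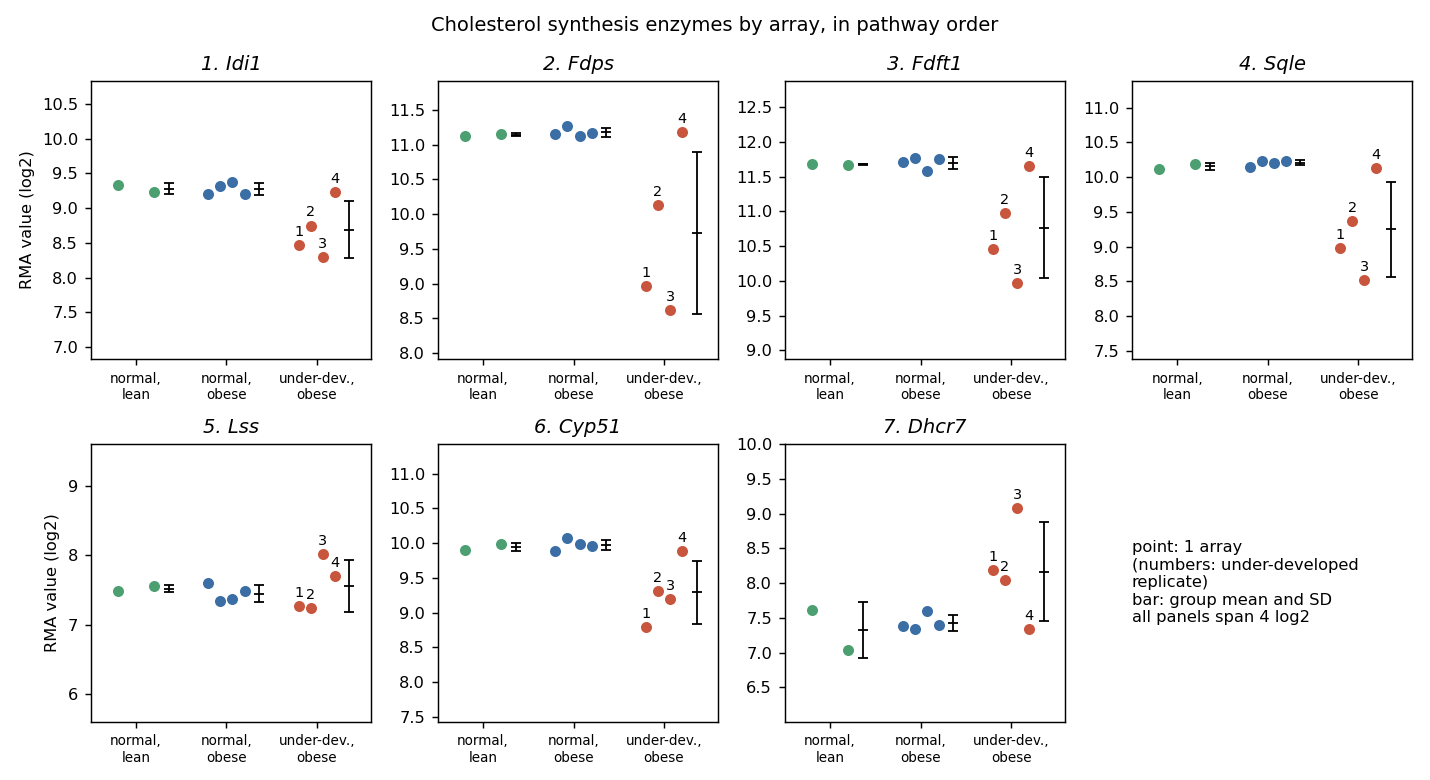
RMA values (log2) of the 7 enzyme genes in pathway order, 1 point per array for normal lean (n = 2), normal obese (n = 4) and under-developed obese testes (n = 4, numbered by replicate), with group mean and SD as bars and the same 4 log2 span in each panel. Fdps, Fdft1 and Sqle show the widest drop in replicates 1 to 3, Dhcr7 is higher in those replicates on the deposited scale, which centring on Sertoli cell genes turns to slightly lower, and replicate 4 stays near the normal arrays.

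The promoters of 6 of the 8 genes were in a RefSeq table of the rat build GRCr8, and 4 of them are shown because they belong to genes that were lower together (Idi1, Fdps and Cyp51) and to the gene that was higher (Dhcr7). Each sequence is the 250 bases before the start of the gene, 5′ to 3′ on the gene's strand, with matches to 4 short motifs in capitals. The motifs, searched on both strands, were CACNCCAC, a core of the sterol regulatory element that SREBP binds, CCAAT, the box of the factor NF-Y, TGACG, a core of the element of CREB and CREM, and GGGCGG, the box of Sp1.
Idi1: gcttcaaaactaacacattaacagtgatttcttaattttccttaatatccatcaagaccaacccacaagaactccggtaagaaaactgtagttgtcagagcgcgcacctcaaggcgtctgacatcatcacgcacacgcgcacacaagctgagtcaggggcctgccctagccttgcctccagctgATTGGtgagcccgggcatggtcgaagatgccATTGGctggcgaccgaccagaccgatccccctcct
Fdps: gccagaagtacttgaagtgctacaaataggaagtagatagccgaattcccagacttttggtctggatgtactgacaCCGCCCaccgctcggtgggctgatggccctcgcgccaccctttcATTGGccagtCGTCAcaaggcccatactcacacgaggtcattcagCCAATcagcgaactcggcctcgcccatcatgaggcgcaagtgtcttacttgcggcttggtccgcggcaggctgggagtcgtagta
Cyp51: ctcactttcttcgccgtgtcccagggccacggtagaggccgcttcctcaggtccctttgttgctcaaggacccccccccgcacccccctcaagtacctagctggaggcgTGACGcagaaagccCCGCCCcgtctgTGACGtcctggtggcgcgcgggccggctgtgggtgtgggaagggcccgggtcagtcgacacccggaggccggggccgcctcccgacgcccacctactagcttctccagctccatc
Dhcr7: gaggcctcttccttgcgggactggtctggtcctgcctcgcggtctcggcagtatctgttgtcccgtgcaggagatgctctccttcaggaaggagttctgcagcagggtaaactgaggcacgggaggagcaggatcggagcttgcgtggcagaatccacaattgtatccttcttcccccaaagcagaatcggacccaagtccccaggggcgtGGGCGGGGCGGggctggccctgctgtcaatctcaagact
The windows are chr17:66547525-66547774 (minus strand) for Idi1, chr2:176804817-176805066 (minus strand) for Fdps, chr4:30991443-30991692 (plus strand) for Cyp51 and chr1:208444184-208444433 (plus strand) for Dhcr7.

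The CCAAT box was found in 4 of the 6 promoters (Hmgcs1, Idi1, Fdps and Lss), and 34% of all 33469 promoter windows of this length hold it. The Hmgcs1 window (chr2:53382054-53382303, plus strand) lies inside the listed span of that gene, which begins at 53379457, and not before it. It is counted here and for the Sp1 box. Idi1 and Fdps each have 2 copies, which begin in Idi1 at positions -66 and -35 and in Fdps at -130 and -85 relative to the start. The CREB and CREM core was found in Fdps (1 copy) and Cyp51 (2 copies, from positions -141 and -115), against 18.2% of all windows. The Sp1 box was found in 5 of the 6, against 30.5% of all windows, and in Dhcr7 its 2 copies overlap by 1 base. This form of the sterol regulatory element was found in 0 of the 6 and in 4.89% of all windows, which says only that these letters are not in these stretches. Cyp51, which was lower like Idi1 and Fdps, shares no CCAAT box with them. The matches describe letters and no site was measured.

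Idi1, the isomerase that makes the reactive isoprene unit, stood at 9.20, 9.32, 9.38 and 9.21 in the normal obese testes and at 9.34 and 9.23 in the lean ones. It was 8.47, 8.75, 8.30 and 9.24 in under-developed replicates 1 to 4. Replicates 1 to 3 lay below all normal arrays, and replicate 4 lay among them. The fitted difference from normal obese testes was -0.59 ± 0.19 (SE, limma adjusted p = 0.0702), and without replicate 4 it was -0.77 ± 0.12 (limma adjusted p = 8.9e-04).

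Fdps, which makes farnesyl diphosphate, the branch point to sterols, ubiquinone, dolichol and prenylated proteins, had the widest difference of the 7. It stood at 11.15, 11.27, 11.13 and 11.17 in normal obese testes, at 11.13 and 11.16 in lean testes, and at 8.97, 10.14, 8.63 and 11.18 in the under-developed ones. Replicates 1 and 3 thus held 21.6% and 17.1% of the normal obese level on the linear scale, replicate 2 held 48.6%, and replicate 4 was at the normal level. The fitted difference was -1.45 ± 0.48 (SE, limma adjusted p = 0.0702), and -1.93 ± 0.30 without replicate 4 (limma adjusted p = 8.1e-04). In replicate 1, only 3.78% of all named genes had a more negative difference than Fdps. That share was 5.44% in replicate 2 and 7.48% in replicate 3. For Idi1, Fdft1, Sqle and Cyp51 the share over replicates 1 to 3 ran from 9.63% (Sqle, replicate 2) to 19.3% (Idi1, replicate 2).

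Fdft1, squalene synthase, which commits the pathway to sterols, was lower as well. Its values were 11.71, 11.76, 11.57 and 11.75 in normal obese testes, 11.68 and 11.67 in lean testes, and 10.46, 10.98, 9.96 and 11.66 in under-developed replicates 1 to 4. The first 3 of these were below every normal array, and replicate 4 was above the lowest normal obese array. The fitted difference of -0.93 ± 0.31 (SE, limma adjusted p = 0.0702) became -1.23 ± 0.21 without replicate 4 (limma adjusted p = 1.1e-03).

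Sqle, squalene epoxidase, a rate-limiting step after squalene, followed Fdft1 closely. It measured 10.15, 10.23, 10.21 and 10.23 in normal obese testes and 10.12 and 10.18 in lean testes, against 8.97, 9.37, 8.52 and 10.13 in the under-developed ones. It was the 1 gene of the 7 whose under-developed arrays all lay below the normal obese arrays, and 17.8% of all genes did not overlap between these groups (10.4% lower and 7.44% higher). Replicate 4, at 10.13, was only just under the lowest normal obese array and lay within the range of the lean arrays. The fitted difference was -0.95 ± 0.29 (SE, limma adjusted p = 0.0702), and -1.25 ± 0.17 without replicate 4 (limma adjusted p = 4.8e-04).

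Lss, which closes the ring of lanosterol, broke the run of lower genes. Its values were 7.61, 7.34, 7.37 and 7.48 in normal obese testes, 7.49 and 7.55 in lean testes, and 7.27, 7.25, 8.02 and 7.70 in under-developed replicates 1 to 4. Replicates 1 and 2 lay slightly below the normal arrays and replicates 3 and 4 above them. The fitted difference was 0.11 ± 0.18 (SE, limma adjusted p = 0.650), with a 95% interval from -0.29 to 0.51, so a shift of that size in either direction was not resolved. It was 0.06 without replicate 4 and -0.04 without replicate 3.

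Cyp51, the sterol demethylase, stood at 9.89, 10.07, 9.98 and 9.96 in normal obese testes, at 9.90 and 9.98 in lean testes, and at 8.79, 9.31, 9.19 and 9.89 in the under-developed ones. Replicates 1 to 3 were lower than every normal array, and replicate 4 lay level with the lowest normal obese array. Unlike Idi1, Fdps, Fdft1 and Sqle, which were lowest in replicate 3, Cyp51 was lowest in replicate 1 (a difference of -1.19, against -0.79 in replicate 3). The fitted difference was -0.68 ± 0.20 (SE, limma adjusted p = 0.0702), and -0.88 ± 0.13 without replicate 4 (limma adjusted p = 6.6e-04).

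Dhcr7, the reductase of the last step, went the other way. It measured 7.38, 7.34, 7.60 and 7.40 in normal obese testes, 7.61 and 7.04 in lean testes, and 8.19, 8.04, 9.08 and 7.34 in under-developed replicates 1 to 4. Replicate 3 held the highest value, 3.14 times the normal obese level, while replicates 1 and 2 were 1.70 and 1.53 times that level. The lean arrays were themselves far apart (SD 0.40, n = 2). The fitted difference was 0.73 ± 0.32 (SE, limma adjusted p = 0.103), and 1.01 ± 0.25 without replicate 4 (limma adjusted p = 7.9e-03). This rise depended on scaling, since the difference without replicate 4 was 0.23 (limma adjusted p = 0.377) with arrays centred on ribosomal protein genes and -0.23 (limma adjusted p = 0.284) with arrays centred on Sertoli cell genes. The 5 lower genes stayed lower and passed limma under both centrings without replicate 4, and Lss was called lower too (-0.71 and -1.18). Most genes did the same, since limma called 71.5% of all genes lower (11.7% higher) with arrays centred on ribosomal protein genes and 84.8% lower (5.91% higher) with arrays centred on Sertoli cell genes, so these calls single out none of the members.

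**Figure D2:**
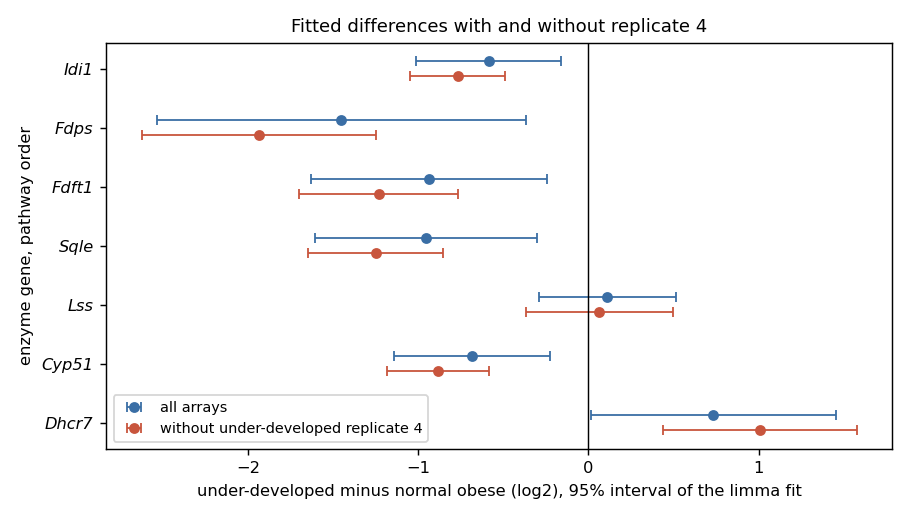
Fitted log2 differences between under-developed and normal obese testes for the 7 genes in pathway order, with 95% intervals from limma, for all arrays (blue) and without under-developed replicate 4 (red). The 5 genes from Idi1 to Sqle and Cyp51 sit below 0, from -0.59 to -1.45 with all arrays, Lss spans 0, and Dhcr7 sits above 0 (0.73) on the deposited scale but not with arrays centred on Sertoli cell genes.

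When each gene was tested over the 4 against 4 obese arrays by exact permutation (two-sided), Sqle reached p = 0.0286, the smallest that this design allows. Fdft1 and Cyp51 gave an exact p = 0.0571, Idi1 an exact p = 0.0857, and Fdps and Dhcr7 an exact p = 0.114. Lss gave an exact p = 0.629. Fdps had the wider difference but overlapped the normal obese arrays, since its replicate 4 lay above 3 of them.

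Along the pathway, the difference did not change evenly from step to step. Relative to Idi1, Fdps in under-developed replicates 1 to 3 was shifted by -1.40, -0.52 and -1.58 log2, where the SD of this ratio among normal obese arrays was 0.10 (n = 4). The ratio of Sqle to Fdft1 shifted by 0.01, -0.12, 0.05 and -0.03 in replicates 1 to 4, where its SD among normal obese arrays was 0.09 (n = 4), and replicate 2 lay beyond that SD. From Sqle to Lss the shift was 1.05, 0.64 and 2.26 in replicates 1 to 3, and from Lss to Cyp51 it was -1.01, -0.47 and -1.36. From Cyp51 to Dhcr7 it was 1.95, 1.28 and 2.44. In replicate 4 none of these neighbour ratios moved by more than 0.34. Centring an array leaves these ratios as they are, and quantile normalization does not.

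The 3 replicates differed in size more than in order. From lowest to highest difference, replicate 1 ran Fdps, Fdft1, Sqle, Cyp51, Idi1, Lss and Dhcr7. Replicate 2 exchanged Fdft1 and Sqle, and replicate 3 exchanged Cyp51 and Idi1. The distance between the lowest and the highest member was 2.97, 1.65 and 4.20 log2 in replicates 1 to 3, and 0.34 in replicate 4.

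The other cholesterol synthesis enzymes (10 measured of 13 listed) were also split. With all arrays limma called 0 of the 10, with 8 at an unadjusted p under 0.05 (46.6% of all genes). Without replicate 4, 5 rose (Acat2, Pmvk, Msmo1, Nsdhl and Ebp) and 3 fell (Mvd, Lbr and Hsd17b7). Over all genes this fit called 29.6% higher and 26.4% lower. The median difference of the list was 0.42, against 0.07 over all genes and -0.88 over the 7 members. With arrays centred on ribosomal protein genes 2 of the 10 were called higher and 5 lower, and with arrays centred on Sertoli cell genes 0 higher and 6 lower. Over all genes these centrings called 71.5% and 84.8% lower, as given above for Dhcr7, and the counts of the lists that follow are to be read against the same shares.

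Before Idi1 in the pathway, Acat2, the thiolase that joins acetyl-CoA, differed by 0.74, 0.49, 0.69 and 0.10 in under-developed replicates 1 to 4. Pmvk, the kinase of phosphomevalonate, differed by 1.17, 1.05, 1.43 and -0.10. Mvd, the decarboxylase just before Idi1, differed by -0.53, -0.48, -0.31 and -0.09, so the lower run began with it.

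After Cyp51, the sterol Δ14-reductase step is shared by Lbr and Tm7sf2. Lbr, which is also a receptor of the nuclear lamina, differed by -0.77, -0.46, -0.82 and -0.32 from a normal obese mean of 8.65 ± 0.05 (SD, n = 4), and its 4 under-developed values lay below all 6 normal arrays. Tm7sf2 differed by 0.28, -0.16, 0.50 and 0.15 and did not pass the test. Msmo1 and Nsdhl, which remove methyl groups from the ring together with Hsd17b7, differed by 1.49, 0.56, 1.63 and 0.01 and by 1.56, 0.50, 1.63 and -0.20. Hsd17b7 itself was lower, by -0.77, -0.78, -0.71 and -0.06. Enzymes of one demethylation complex thus had opposite signs on the deposited scale. Ebp, the sterol isomerase, had the widest positive difference of the pathway, at 1.49, 1.16, 2.43 and -0.08. Sc5d, the desaturase before Dhcr7, differed by -0.20, -0.29, 0.04 and 0.03 and did not pass.

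**Figure D3:**
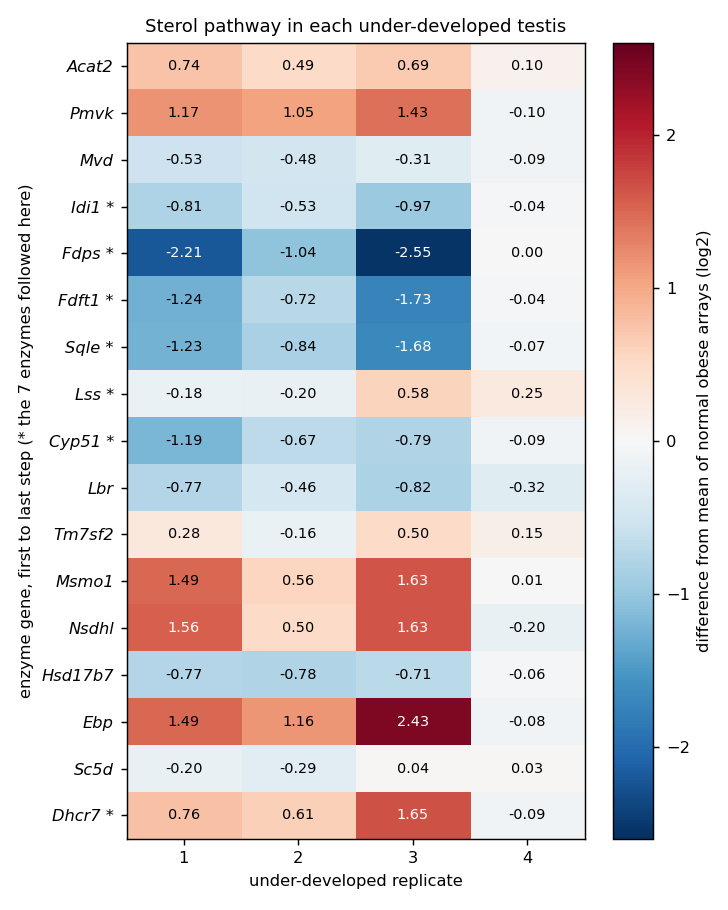
Differences (log2) of 17 measured cholesterol synthesis genes from the average normal obese array, rows from the first to the last step (the late steps can run in more than 1 order), columns the 4 under-developed replicates, red higher and blue lower. In replicates 1 to 3 a blue run from Mvd to Lbr, broken at Lss, follows the higher steps Acat2 and Pmvk. After it, Msmo1, Nsdhl, Ebp and Dhcr7 are higher in these replicates, Hsd17b7 is lower, and Tm7sf2 and Sc5d go both ways. Of the higher genes, Acat2, Pmvk, Msmo1, Nsdhl and Dhcr7 turn below 0 with arrays centred on Sertoli cell genes (Acat2 also on ribosomal protein genes).

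The genes of the SREBP control list did not follow the 5 lower enzymes. The list also holds Nr1h2, Nr1h3 and Mylip, which are not part of the SREBP machinery, so its counts are not of SREBP control alone. Of its genes (10 measured of 10), limma called 0 with all arrays, and 6 rose and 0 fell without replicate 4. With arrays centred on Sertoli cell genes the list had 3 higher and 5 lower, and on ribosomal protein genes 4 higher and 3 lower. Srebf2 and Insig1 are named by choice, beside the 4 genes with the largest differences. Srebf2, the main factor of cholesterol genes, differed by 0.49, 0.03, 1.09 and 0.18 and did not pass (limma adjusted p = 0.0621 without replicate 4), with a sign that turned under both centrings. Srebf1, which acts more on fatty acid genes, differed by 1.15, 0.74, 1.64 and -0.02, but its difference without replicate 4 was -0.07 when arrays were centred on Sertoli cell genes. Scap, which escorts SREBP out of the endoplasmic reticulum, differed by 1.89, 1.06, 1.99 and -0.09, and Mbtps1, the protease that first cuts SREBP, by 1.80, 1.04, 2.16 and -0.05. Insig1, which retains SREBP and is itself a target of it, differed by -0.08, -0.17, 0.38 and -0.07. Mylip, the ligase that degrades lipoprotein receptors, differed by 2.04, 1.43, 2.53 and -0.06.

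Genes of cholesterol uptake, storage and export (13 measured of 16) were mostly higher. With all arrays 0 were called in limma. Without replicate 4, 10 rose and 1 fell, where 29.6% of all genes were called higher and 26.4% lower. The counts were 9 higher and 3 lower with arrays centred on ribosomal protein genes, and 6 higher and 4 lower on Sertoli cell genes. Abca1 and Abcg1, which export cholesterol, differed by 3.66, 3.11, 4.10 and -0.25 and by 3.11, 2.10, 3.18 and 0.28. Apoe, the apolipoprotein, differed by 3.45, 2.73, 3.54 and -0.09. Lipe, hormone-sensitive lipase, which frees cholesterol from its esters, was the 1 that fell, with differences of -3.17, -1.88, -2.29 and -0.06. Like Cyp51, Lipe was lowest in replicate 1.

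The isoprenoid branches that leave at farnesyl diphosphate (8 measured of 9) were split. With all arrays 0 were called. Without replicate 4, 3 rose and 2 fell, where 29.6% of all genes were called higher and 26.4% lower. On ribosomal protein genes the split was 1 higher and 6 lower. On Sertoli cell genes it was 0 higher and 7 lower, with all 3 of the higher genes below 0. Fnta, a subunit of farnesyltransferase, differed by -0.88, -0.56, -1.51 and -0.13, and Pggt1b, a subunit of a related prenyltransferase, by 1.15, 0.84, 1.66 and 0.17. Coq2, of ubiquinone synthesis, differed by 0.79, 0.68, 1.10 and 0.17, and Nus1, of dolichol synthesis, by 0.66, 0.16, 0.50 and 0.03.

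Markers of cell types moved with these differences. In bulk tissue, fewer cells of a type and less RNA per cell cannot be told apart. The mean of the germ cell markers differed by -2.38, -0.61, -4.10 and -0.05 in under-developed replicates 1 to 4. At least 2-fold lower were 14, 3, 15 and 0 of the 15 genes. Of all genes, 15.6%, 6.18%, 16.8% and 0.0055% were at least 2-fold lower in these replicates. The log2 summed level of the germ cell markers was between 16.01 and 16.04 in the normal testes of both groups. It was between 12.52 and 15.99 in the under-developed ones. Idi1, Fdps, Fdft1 and Sqle had the same order of arrays as the germ cell list, lowest in replicate 3, then 1, then 2, and Cyp51 did not. The correlation with the average normal obese array rose in that order too (r = 0.735, 0.860 and 0.949). Sertoli and Leydig marker means were highest in replicate 3, then 1, then 2, so the order is not particular to germ cell genes.

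Most somatic markers were higher in replicates 1 to 3 on the deposited scale. Without replicate 4, limma called 6 of 9 Sertoli, 5 of 7 Leydig and 8 of 9 macrophage genes higher, and 1 Sertoli gene (Amh) and 1 macrophage gene (Aif1) lower. Over all genes that fit called 29.6% higher and 26.4% lower. With arrays centred on ribosomal protein genes, 4 Sertoli, 3 Leydig and 5 macrophage genes were called higher, and 2, 0 and 1 lower. On Sertoli cell genes, 1 Leydig and 4 macrophage genes were called higher, and 2 of each lower. These centrings called 11.7% and 5.91% of all genes higher, and 71.5% and 84.8% lower. The mean of the Sertoli cell markers (9 genes) differed by 1.27, 1.02, 1.43 and 0.04, that of the Leydig cell markers (7 genes) by 1.41, 0.80, 1.59 and -0.27, and that of the macrophage markers (9 genes) by 1.78, 1.06, 1.63 and -0.04. At least 2-fold higher in replicates 1 to 4 were 6, 4, 6 and 0 of the 9 Sertoli genes, 5, 3, 5 and 0 of the 7 Leydig genes, and 7, 4, 6 and 0 of the 9 macrophage genes. Of all genes, 15.5%, 7.56%, 19.2% and 0.0385% were at least 2-fold higher in these replicates. Aif1, named after its values were seen, differed by -1.25, -0.50, -2.01 and -0.08, and Amh by -0.35, -0.32, -0.17 and -0.22. The under-developed arrays of both lay below all normal obese arrays. The log2 summed level ranged from 13.04 to 13.15 (Sertoli), 11.07 to 11.54 (Leydig) and 11.16 to 11.49 (macrophage) in normal obese testes. In under-developed testes it ranged from 13.17 to 14.69, from 11.04 to 13.54 and from 11.27 to 13.45, and in lean testes from 12.98 to 13.16, from 11.18 to 11.40 and from 11.12 to 11.28. RMA values have no zero, so no marker is listed at 0. The Sertoli genes Sox9 and Amh, the dimmest of the 9, stood between 5.31 and 6.42 on all arrays, below the array medians. The other Sertoli genes lay above the medians, with normal obese means from 7.58 (Fshr) to 12.60 (Clu). Adipocyte markers (6 genes) averaged between 5.53 and 5.86 on all arrays, and their mean differed by -0.28, -0.18, -0.15 and 0.01 in replicates 1 to 4. Without replicate 4, limma called 1 of the 6 higher and 3 lower, to be read against the shares of all genes above. With arrays centred on ribosomal protein genes, 0 were called higher and 5 lower, and the counts were the same on Sertoli cell genes. The part of these cell types in the enzyme differences was not tested.

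**Figure D4:**
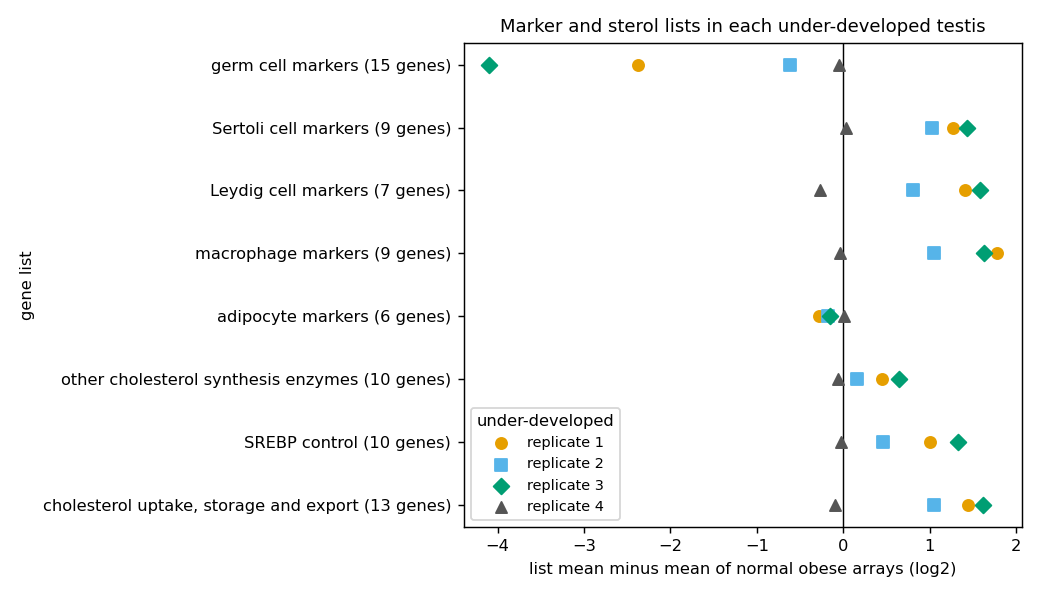
Mean difference (log2) of each gene list from the average normal obese array, 1 symbol per under-developed replicate (n = 4 arrays). Germ cell markers spread from -0.05 to -4.10, and the Sertoli, Leydig and macrophage markers and the sterol control and uptake lists lie to the right in replicates 1 to 3 on the deposited scale, where centring on the Sertoli cell genes would set their own mean to 0 and turns the median of the control list below 0.

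The genes most like each enzyme over the 10 arrays were found by Pearson correlation among all named genes, as a description. The 3 arrays that stand apart set these values, so r over the 7 arrays without under-developed replicates 1 to 3 is given beside it. Fdps was most like Slc25a2, a mitochondrial carrier gene (r = 0.999, and 0.669 over the 7 arrays), and Oxct2b, a ketone-body enzyme gene (0.999 and 0.404), which differed by -4.30, -1.89, -4.91 and -0.07. Fdft1 was most like Prmt7 (0.999 and 0.871) and C4h2orf42 (0.999 and 0.857), and Sqle most like Cacul1 (0.999 and 0.896) and the replication helicase gene Mcm7 (0.999 and 0.817). Idi1 was most like Hdlbpl2 (0.994 and 0.728) and Rpgrip1l (0.993 and 0.728).

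Cyp51 was most like the spliceosome gene Snrpa1 (0.994 and 0.761) and Lipe (0.992 and 0.487). Lss was most like Prkab1 (0.960 and 0.891), a subunit of AMP-activated kinase, and Zfp775 (0.95 and 0.807). Dhcr7 was most like Ndst1 (0.986 and 0.842), an enzyme of heparan sulfate, and Lmod1 (0.985 and 0.859), a smooth muscle gene. Among the members, the 5 lower genes had pairwise r from 0.903 to 0.994 over the 10 arrays, and from -0.465 to 0.835 over the 7 arrays.

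Normal testes of obese and lean rats showed no difference in these genes that limma could resolve. It called 0 of the 7 at an adjusted p under 0.05 (0% of all genes) and 0 of the 7 at an unadjusted p under 0.05 (0.44% of all genes). The arrays of the groups overlapped for all 7 genes, where 15% of all genes did not overlap. The fitted difference, obese minus lean, lay between -0.07 for Lss and 0.10 for Dhcr7, with limma adjusted p of 1.00 for each. The 95% interval was widest for Fdps, from -1.30 to 1.36, and narrowest for Lss, from -0.56 to 0.42, because the under-developed arrays share the estimate of the spread. Without replicate 4 the interval of Fdps was -0.75 to 0.81. When only the normal obese and lean arrays were fitted, the interval of Fdps was -0.13 to 0.20, and the widest was that of Dhcr7, from -0.25 to 0.45. The lowest limma adjusted p of the 7 in that fit was 0.918 (Lss). The missed threshold does not show that obese and lean testes were alike.

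Against lean testes, the under-developed testes had differences of the same sign as against normal obese testes, and both comparisons share the under-developed arrays. The fitted differences were -0.59 for Idi1, -1.42 for Fdps, -0.91 for Fdft1, -0.90 for Sqle, 0.04 for Lss, -0.65 for Cyp51 and 0.84 for Dhcr7. Limma called 0 of the 7 (0% of all genes), with adjusted p from 0.154 to 0.909, and 5 had an unadjusted p under 0.05 (31.8% of all genes). Fdft1 and Cyp51 did not overlap between these groups, and 28.5% of all genes did not. Without replicate 4, 5 fell and 1 rose in limma, against 48.8% of all genes (23.2% lower and 25.6% higher), with differences of -0.77 for Idi1, -1.90 for Fdps, -1.21 for Fdft1, -1.20 for Sqle, -0.85 for Cyp51 and 1.11 for Dhcr7, and Lss turned to -0.0063.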

How the data were processed

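Total RNA of 10 testes was extracted with Trizol and labelled with biotin by the Affymetrix WT PLUS protocol, per the labels' protocols. The authors deposited log2 expression values per probe set, 1 array per sample, made by RMA per the submitters' processing notes. The version and settings of RMA are not given in the sources used here. RMA sets arrays to a like distribution, so genes are measured relative to the other genes of an array.

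Of 36685 probe sets, 18511 carried 1 gene symbol, 575 several and 17599 none here, and 18394 matched the RefSeq table of GRCr8. The brightest probe set stood for each of 291 genes with several, and all 18166 genes were tested. Limma 3.58.1 in R 4.3.3 (lmFit, eBayes) fitted a mean per group, taken from the sample titles, over all 10 arrays, with two-sided p-values adjusted by Benjamini-Hochberg over all genes and a threshold of 0.05. The fit was tested on simulated data, in which all arrays had the spread of the normal obese arrays. That test does not cover the wider spread of the under-developed arrays (for Fdps an SD of 1.16 against 0.06).

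Members, lists and tests were chosen with earlier results of these data known. The rule names all members, the other synthesis enzymes measured, the 4 genes of each further list with the largest difference, Srebf2 and Insig1, the first markers of a list, and the 2 genes most correlated with each member. Some listed genes were not analysed here. Replicate numbers were not shown to pair arrays, and the main fit does not pair them. Alternatives were 4 other scalings, an offset of 50, a filter at the 25th percentile, the mean of probe sets, trend and robust moderation, array weights, only the compared groups, a replicate block and leaving out each array.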

Additional observations from a re-analysis of the deposited data

How the results depend on the processing

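With 4 or 2 arrays a group, and signal strength known only through RMA values, differences of the size seen in Lss cannot be resolved. For under-developed against normal obese testes, 142 of 147 recomputed member differences kept their direction, and Idi1, Fdps, Fdft1, Sqle and Cyp51 kept theirs in all 21 settings each. The number of members called was 0 under the settings not named here. It was 6 with arrays centred on the Sertoli cell list (0 higher, 6 lower; over all genes 2.15% higher and 69.3% lower) and 6 with array weights (1 higher, 5 lower; 54.3% of all genes), where under-developed replicate 4 had the lowest weight, 0.0619. Leaving out each array in turn gave 0 to 6, and the 6 came without under-developed replicate 4. With that array left out, chosen after seeing the data, each of the 4 scalings also gave 6, with Lss in place of Dhcr7 in both centrings on a gene list. Of all genes these called 54.5% (median), 83.2% (ribosomal protein list), 90.7% (Sertoli list) and 53.1% (quantile). Against lean testes the count was 6 with array weights (53% of all genes), 0 to 6 when each array was left out, and 6 under each of the 4 scalings without replicate 4 (49%, 82.6%, 89.5% and 46.2% of all genes). Centring on the ribosomal protein or Sertoli cell list moved the median difference of all genes from 0.06 to -0.48 and -0.88.

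For under-developed against normal obese testes, Lss turned to -0.43 (ribosomal protein list), -0.83 (Sertoli list), -0.073 (array weights) and between -0.043 and 0.22 when each array was left out, and Dhcr7 to -0.20 (Sertoli list). Against lean testes, Lss turned to -0.054 (median centring), -0.61 (ribosomal protein list), -0.95 (Sertoli list), -0.028 (quantile normalization), -0.14 (array weights), -0.10 (replicate block) and between -0.11 and 0.14 without single arrays, and Dhcr7 to -0.15 (Sertoli list). For obese against lean normal testes, where 17 of 147 values turned and 0 members were called in any setting, the ribosomal protein list gave Fdps -0.074, Fdft1 -0.084, Sqle -0.056, Cyp51 -0.071 and Dhcr7 -0.0032. The Sertoli list gave Fdps -0.019, Fdft1 -0.029, Sqle -7.6e-04 and Cyp51 -0.016, and quantile normalization gave Fdft1 -0.0010. Without single arrays Idi1 ranged from -0.061 to 0.047, Cyp51 from -0.0053 to 0.077 and Dhcr7 from -0.18 to 0.39. The cause of these turns was not tested.

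With the replicate number as a block, 0 members were called in each comparison, and Fdps and Cyp51 turned to -0.040 and -0.085 for obese against lean normal testes. The numbers were not shown to pair arrays: same-numbered obese arrays correlated in their deviations at r between 0.0069 and 0.260, and 1 of 4 under-developed arrays correlated best with its own number. The mean of probe sets leaves the members as they are, since each has 1 probe set. No slide was given, so a slide block was not run.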
